A study of Mus musculus with 20 samples.

Results

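The genes described here are the classical guidance cues and receptors of the ephrin, Slit and netrin systems: 14 Eph receptors (Epha1 to Epha8, Epha10, Ephb1 to Ephb4 and Ephb6), 8 ephrins, 3 Slit ligands, 3 Robo receptors, netrins 1 and 4, the membrane-anchored netrin-G genes Ntng1 and Ntng2, and the netrin receptors Dcc and Unc5a to Unc5d. These 37 genes are given by name, and all 37 have an identifier among the 25317 of the count table. RNA was read from the cortex of 3-month-old C57BL/6 mice that were heterozygous for a Foxp2 deletion or wild type. In the ribosome pull-down (bacTRAP IP, in which ribosomes bearing a GFP tag are captured with anti-GFP serum) there were 3 heterozygous and 5 wild-type animals, and the lysate of the same 8 animals sampled before the pull-down gave the Input, again 3 heterozygous and 5 wild-type libraries. Foxp2 encodes a forkhead transcription factor. The cells that carry the tag and the design of the deleted allele are not given in the sources used here.

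Eph receptors are receptor tyrosine kinases, and ephrins are their cell-surface ligands, tethered by a lipid anchor in the A class and by a membrane-spanning segment in the B class. Slits are secreted proteins that repel growing axons through Robo receptors, while netrin-1 attracts axons through Dcc and repels them through Unc5 receptors. In the adult cortex members of these families are also known at synapses, where the netrin-G proteins and several Eph receptors take part in the contact between neurons.

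Libraries held 4917886 to 5337469 counts in heterozygous IP, 4061562 to 5754169 in wild-type IP, 2782934 to 4072270 in heterozygous Input and 3391291 to 3934152 in wild-type Input. Levels below are CPM, counts scaled to the size of each library with TMM factors, and errors are SD over animals unless said otherwise. Foxp2 itself was at 31.8 to 55.6 CPM in heterozygous IP against 45.3 to 102.7 CPM in wild-type IP, and at 24.0 to 30.9 CPM in heterozygous Input against 38.0 to 63.8 CPM in wild-type Input, where the genotypes did not overlap. Its log2 difference was -0.59 ± 0.23 (SE) in IP and -0.76 ± 0.17 (SE) in Input, and neither passed over all genes (edgeR adjusted p 0.981 and 0.503). Summed markers of layer 6 corticothalamic neurons, the cortical cells known for Foxp2 expression, ran from 330.4 to 411 CPM in heterozygous IP and 302 to 424 CPM in wild-type IP, against 179 to 200.5 and 171 to 223 CPM in the Inputs. Oligodendrocyte markers ran the other way, at 612 to 1049 CPM in heterozygous IP and 721 to 1022 CPM in wild-type IP, against 2852 to 3866 and 3029.5 to 4112 CPM in the Inputs. The layer 6 list includes Foxp2 itself, so its sum is not separate from the Foxp2 values above. No marker of either list was at 0 in any group. The pull-down of animal het729 stood apart in its share of mitochondrial counts, 0.398% against 0.0616% to 0.127% in the other IP libraries.

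The members spanned a wide range of levels in cortical lysate. Divided by the length of the longest coding transcript, wild-type Input held most of Efnb3, a B-class ephrin, at 23.0 CPM per kb, followed by the receptor genes Epha4 at 18.6 and Ephb6, whose kinase domain is catalytically inactive, at 17.7 CPM per kb. Epha5, Efna3, Epha10 and Epha7 came next, between 8.78 and 10.1 CPM per kb. Their place depends on the length used. The longest coding transcript of Epha10 has 2544 bases against 7204 in all its exons, and that of Epha5 has 7328 against 16739. Unc5a led the netrin receptors at 6.34 CPM per kb, Robo2 led the Robo receptors at 4.16, Ntng1 the netrin-G genes at 3.52 and Slit1 the Slits at 1.98 CPM per kb. Efnb3, Epha4 and Ephb6 overlapped within their SD with the neighbour in this order, and so did the run from Epha5 to Epha7. Epha1, Epha2, Ephb4, Efna4, Ntn4 and Ntng2 had 0 to 20 counts in each of the 16 libraries and fell below the low-count filter. The other 31 members were tested in the comparison of IP with Input.

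**Figure D1:**
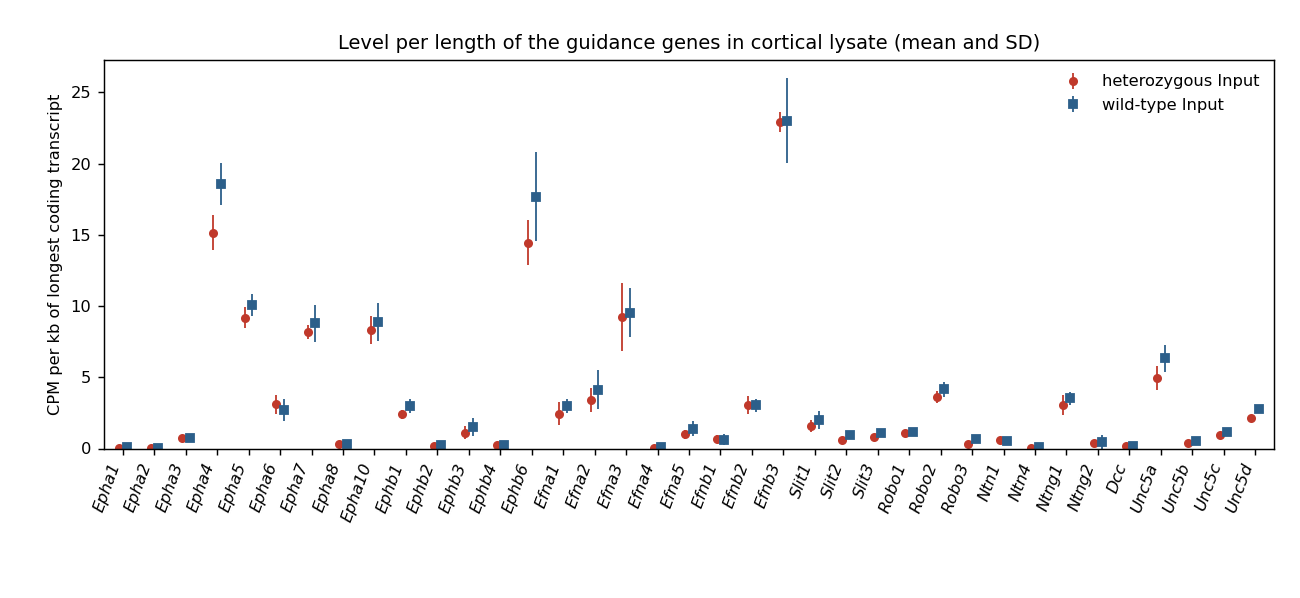
Mean level of each of the 37 genes in Input, in CPM per kb of longest coding transcript, with SD over 3 heterozygous (circles) and 5 wild-type animals (squares). Efnb3, Epha4 and Ephb6 are highest in both genotypes, and many Slit, Robo and netrin genes sit near the bottom of the scale.

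The first comparison asks which of these genes are represented more strongly on the tagged ribosomes than in the whole tissue. In heterozygous animals, 15 of the 31 tested members were higher in IP, where 22.6% of all 14797 genes tested were, and 1 was lower, where 22.1% of all genes were. The members had a median log2 difference of 0.53, against 0.04 over all genes, and 25 were positive and 6 negative. In wild-type animals 15 members were higher (28.5% of all genes) and 2 were lower (25.6% of all genes), with a median of 0.59 against 0.03 over all genes, and 26 were positive and 5 negative. Without animal hetBT13 the heterozygous count of 16 was 10, without het786 it was 13, and without het729 it was 14. Of the members called, 15 were called in both genotypes, Unc5d in heterozygous animals alone and Ephb3 and Efna5 in wild type alone. The test of the difference between genotypes, given further on, called none of them. Calls here are at an adjusted p below 0.05 in edgeR's quasi-likelihood test with animal as a block. Epha8, Efnb1 and Dcc, counted here, fell below the low-count filter when the Input libraries were taken alone. Of these genes only Dcc was called, and it is among those higher in IP in both genotypes. In bulk RNA such as this, fewer cells of a type and less RNA per cell cannot be told apart.

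Receptors made up most of the higher group, and they were also 19 of the 31 tested members. Of all genes tested, 22.6% were higher in IP in heterozygous and 28.5% in wild-type animals, and 22.1% and 25.6% were lower. Of the 19 tested receptor genes, 11 were higher in IP and 0 lower, in heterozygous as in wild-type animals, with median log2 differences of 0.71 and 0.63. These 11 receptors include Dcc, which passed the low-count filter through its IP libraries. Of the 11 tested ligand genes, 3 were higher in each genotype (Slit1, Slit3 and Efna3), and 1 was lower in heterozygous and 2 in wild-type animals, with medians of 0.20 and 0.21. The contrast between receptors and ligands was not tested.

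Slit1, a secreted ligand of the Robo receptors, had the largest log2 difference of the tested members in both genotypes. It stood at 23.8, 28.2 and 30.2 CPM in heterozygous IP and 33.6, 32.1, 36.0, 32.0 and 26.2 CPM in wild-type IP, against 11.0, 6.49 and 9.64 CPM in heterozygous Input and 12.1, 10.1, 17.0, 6.96 and 10.1 CPM in wild-type Input. Every IP library was above every Input library. The log2 difference was 1.58 ± 0.22 (SE) in heterozygous and 1.54 ± 0.16 (SE) in wild-type animals (edgeR adjusted p 8.07e-06 and 7.49e-08). Slit3, another Slit ligand, was also higher, with log2 differences of 1.48 ± 0.28 (SE) and 0.93 ± 0.20 (SE). Slit2, the third of the family, had 0.30 ± 0.28 (SE) and 0.38 ± 0.19 (SE) and did not pass (adjusted p 0.410 and 0.0934).

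Dcc, the receptor through which netrin-1 attracts axons, was scarce in the tissue. It had 3.68, 4.04 and 2.53 CPM in heterozygous IP and 3.50, 4.98, 2.70, 4.42 and 5.50 CPM in wild-type IP, against 1.04, 2.27 and 1.21 CPM in heterozygous Input and 1.35, 1.06, 2.59, 2.51 and 1.59 CPM in wild-type Input. Within each genotype the fractions did not overlap. The log2 difference was 1.20 ± 0.47 (SE) in heterozygous and 1.22 ± 0.33 (SE) in wild-type animals (edgeR adjusted p 0.0430 and 0.00401). These values rest on 15 to 22 and 13 to 32 counts per IP library and 3 to 7 and 4 to 9 counts per Input library, and Dcc passed the low-count filter through its IP libraries. The heterozygous call was lost in 5 of 12 alternatives, with DESeq2 (adjusted p 0.130) and without each of 4 animals in turn (0.0512 to 0.234).

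Among the other netrin receptors, Unc5a was higher in IP in both genotypes, by 1.27 ± 0.17 (SE) in heterozygous and 0.88 ± 0.13 (SE) in wild-type animals on the log2 scale. Unc5d passed in heterozygous animals, with 0.48 ± 0.17 (SE) (adjusted p 0.0249; 0.0776 with DESeq2), and in wild type had 0.20 ± 0.12 (SE) (adjusted p 0.187). The heterozygous call of Unc5d was lost without het729, het786 or hetBT13 in turn (edgeR adjusted p 0.0544 to 0.117). Unc5b and Unc5c did not pass in either genotype, and neither did Ntn1, the attractant itself, at 2.14 ± 0.980 CPM in heterozygous IP and 3.05 ± 0.331 CPM in wild-type IP, against 3.37 ± 0.247 and 3.27 ± 1.67 CPM in the Inputs. Ntng1, known as a presynaptic adhesion protein, was higher in all 8 animals, by 0.82 ± 0.17 (SE) and 0.64 ± 0.13 (SE). Robo1 and Robo2, receptors of the Slits, were higher in both genotypes, Robo2 by 0.90 ± 0.16 (SE) and 0.71 ± 0.12 (SE), while Robo3 had -0.33 ± 0.60 (SE) and -0.37 ± 0.37 (SE) and did not pass. The heterozygous call of Robo1 (log2 0.72, adjusted p 0.0263) was lost with DESeq2 (0.0740), without het786 (0.148) and without hetBT13 (0.168), and its wild-type call without wt734 (0.0616).

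Epha3, a receptor of the A-class ephrins, had 7.53, 9.54 and 11.8 CPM in heterozygous IP and 5.66, 5.91, 14.8, 12.1 and 9.54 CPM in wild-type IP, against 4.96, 4.22 and 2.81 CPM in heterozygous Input and 4.04, 3.19, 4.31, 5.01 and 4.76 CPM in wild-type Input. The lowest IP library was above the highest Input library, and the log2 differences were 1.20 ± 0.31 (SE) and 1.13 ± 0.23 (SE) (edgeR adjusted p 0.00332 and 0.000333). Without animal hetBT13 the heterozygous value was 0.87 (adjusted p 0.0607). Ephb1, a receptor of the B-class ephrins, had 25.6, 27.9 and 24.0 CPM in heterozygous IP and 32.0, 25.4, 34.1, 27.6 and 33.4 CPM in wild-type IP, against 9.92, 11.0 and 12.9 CPM in heterozygous Input and 17.5, 14.1, 14.4, 12.5 and 11.4 CPM in wild-type Input. Again no IP library fell within the Input range, with log2 differences of 1.21 ± 0.19 (SE) and 1.13 ± 0.14 (SE) (adjusted p 3.48e-05 and 7.57e-07).

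**Figure D2:**
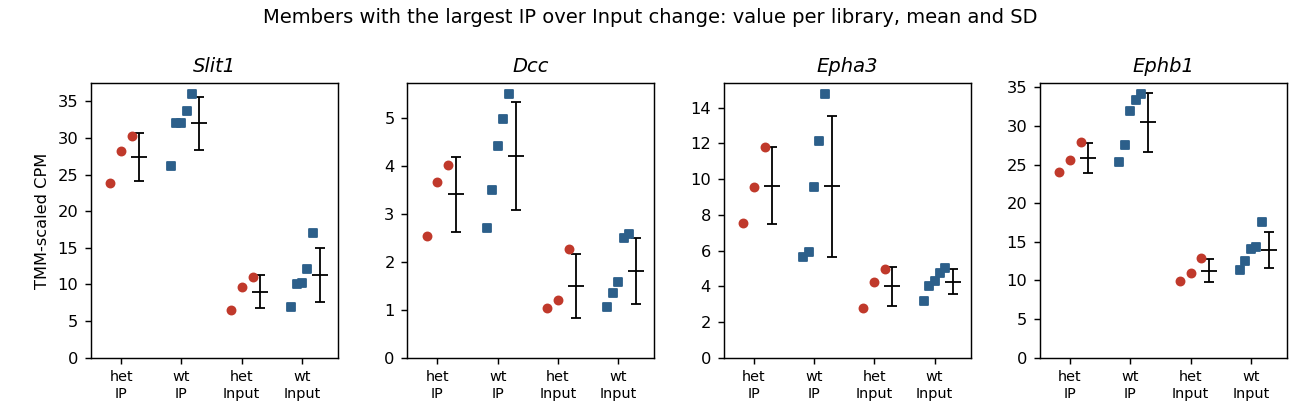
CPM of Slit1, Dcc, Epha3 and Ephb1 in each library, with heterozygous animals as circles and wild-type animals as squares, and mean and SD beside each group. For Slit1, Epha3 and Ephb1 every IP library lies above every Input library, while for Dcc the lowest heterozygous IP library, at 2.53 CPM, is just under the highest wild-type Input library, at 2.59 CPM.

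Epha4, Epha5, Epha7 and Ephb6, receptors of higher level, were also higher in IP in 8 of 8 animals. Epha4, which binds ephrins of both classes, had 159 ± 25.9 CPM in heterozygous IP and 180.3 ± 25.4 CPM in wild-type IP, against 95.9 ± 7.75 and 117 ± 9.41 CPM in the Inputs. Its log2 differences were 0.71 ± 0.11 (SE) and 0.62 ± 0.09 (SE). Epha5 had 0.57 and 0.59, Epha7 had 0.52 and 0.69, and Ephb6 had 0.998 and 0.72 on the same scale. Ephb3, a B-class receptor, had 0.53 in heterozygous animals (adjusted p 0.146) and passed in wild type (log2 0.68, adjusted p 0.00693). It lost the wild-type call when the animals were not blocked (adjusted p 0.0678) and without wt736 (0.0627). Epha6, Epha8, Epha10 and Ephb2 did not pass in either genotype. Ephb2 had log2 values of 1.06 and 0.93 with adjusted p of 0.122 and 0.0502.

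The ephrin ligands differed from each other. Efna3 was higher in IP, by 0.58 ± 0.19 (SE) in heterozygous and 0.43 ± 0.15 (SE) in wild-type animals, although 14.1% of its exonic bases are shared with Gm15998 on the other strand and the library method does not mark strand. Its wild-type call was lost without wt736, wt785 or wtBT13 (edgeR adjusted p 0.0552 to 0.0881), and its heterozygous call without hetBT13 (0.134). Efnb3 was lower, and like Efna5 it is described here after its values were seen. It had 61.2, 56.9 and 48.0 CPM in heterozygous IP and 62.3, 52.4, 71.8, 63.1 and 41.1 CPM in wild-type IP, against 75.2, 73.0 and 70.7 CPM in heterozygous Input and 84.3, 65.9, 81.1, 62.1 and 72.6 CPM in wild-type Input. The heterozygous libraries did not overlap between fractions and the wild-type libraries did, with log2 differences of -0.40 ± 0.13 (SE) and -0.33 ± 0.10 (SE) (edgeR adjusted p 0.0176 and 0.00833). In 7 of 8 animals Efnb3 was lower in IP. Without animal wtBT14 the wild-type value was -0.22 (adjusted p 0.0605), and the heterozygous call was lost without het786 (0.0599) and without hetBT13 (0.110).

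Efna5, an A-class ephrin, had 3.68, 3.67 and 2.53 CPM in heterozygous IP and 2.16, 3.27, 3.12, 4.19 and 2.75 CPM in wild-type IP, against 3.13, 5.51 and 3.62 CPM in heterozygous Input and 6.46, 5.58, 4.02, 3.34 and 8.56 CPM in wild-type Input. Both pairs of groups overlapped. The heterozygous log2 difference was -0.28 ± 0.40 (SE) (adjusted p 0.585), and the wild-type difference passed at -0.83 ± 0.29 (SE) (adjusted p 0.0193). The wild-type call was lost with DESeq2 (adjusted p 0.0611) and without animal wt734 or wtBT14 (0.102 and 0.110). Efna1, Efna2, Efnb1 and Efnb2 did not pass in either genotype.

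**Figure D3:**
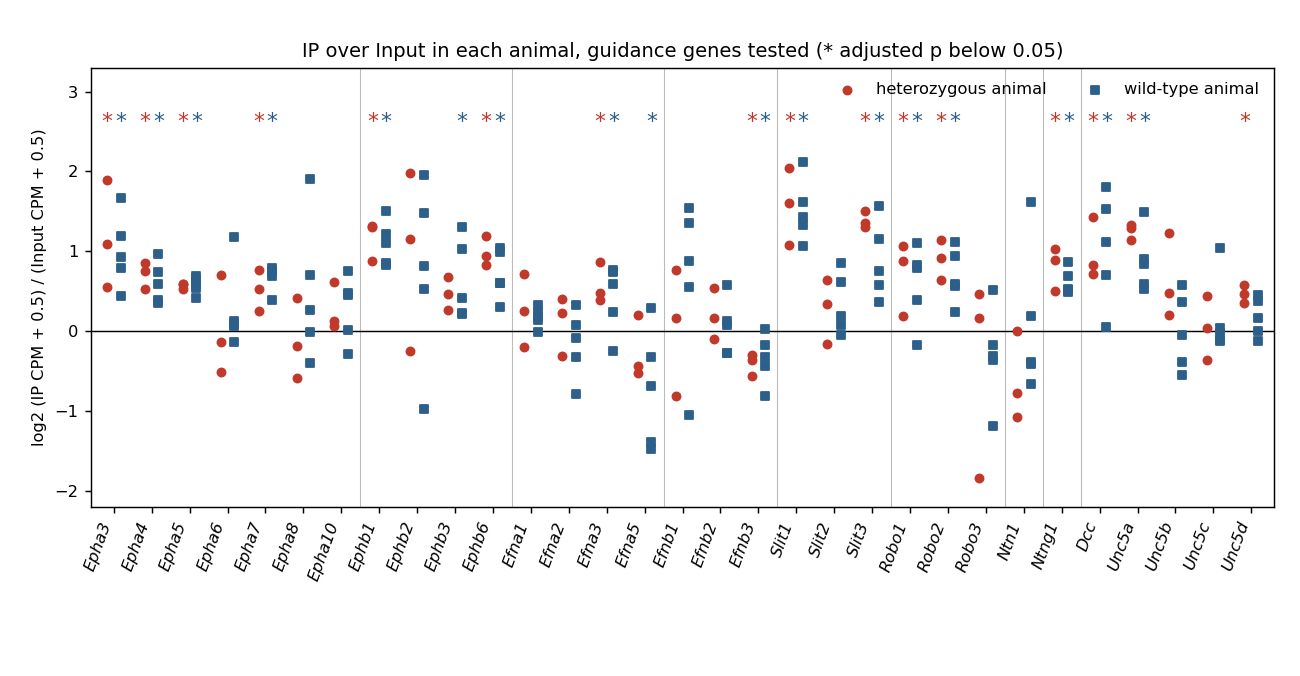
Log2 ratio of IP to Input CPM, with 0.5 added to both, in each of 3 heterozygous (circles) and 5 wild-type animals (squares) for the 31 tested genes, ordered by family; asterisks mark an edgeR adjusted p below 0.05. Slit1, Ephb1 and Unc5a are above 0 in 8 of 8 animals, and Efnb3 is below 0 in 7 of 8.

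Genes that act with these receptors inside the cell or at its surface were looked at as a list of their own, with 43 members in the table, of which 41 were tested. In heterozygous animals 19 were higher in IP (46.3%, against 22.6% of all genes tested) and 8 lower (19.5% against 22.1%). In wild-type animals 20 were higher (48.8% against 28.5%) and 8 lower (19.5% against 25.6%). The share called lower was thus not above that of all genes. Trio had the largest log2 difference of the list, 1.83 ± 0.22 (SE) in heterozygous and 1.49 ± 0.16 (SE) in wild-type animals. Dock1, a Rac activator in netrin signalling, had a log2 difference of 1.14 ± 0.21 (SE) in heterozygous and 1.23 ± 0.16 (SE) in wild-type animals, and Arhgap39, whose counterpart in Drosophila binds Robo, had 0.96 ± 0.15 (SE) and 1.19 ± 0.12 (SE). Dscam, an adhesion receptor also reported to bind netrin-1, had 1.31 ± 0.19 (SE) and 0.72 ± 0.14 (SE), and Neo1, the Dcc relative neogenin, had 0.55 ± 0.19 (SE) and 0.44 ± 0.14 (SE). The lower genes included Ngef, Vav2 and Chn1, which encode an exchange factor bound to EphA4, an exchange factor in Eph receptor uptake and a Rac-inactivating protein downstream of EphA4. Ngef had -0.96 ± 0.12 (SE) and -0.85 ± 0.10 (SE), Vav2 had -1.12 ± 0.39 (SE) and -0.81 ± 0.30 (SE), and Chn1 had -0.74 ± 0.13 (SE) and -0.70 ± 0.10 (SE). The netrin-G1 ligand gene Lrrc4c was lower as well, with -0.40 ± 0.11 (SE) and -0.57 ± 0.09 (SE).

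The second comparison asks whether the heterozygous Foxp2 deletion altered the guidance genes, on tagged ribosomes and in lysate. No member passed in either fraction. In IP, edgeR called 0 of the 31 tested members and 0% of 14755 genes, with 1 member and 604 genes at an unadjusted p below 0.05; DESeq2 called 0 members and 1 gene, the astrocyte gene Mlc1, named here after its value was seen. Members in IP were 10 positive and 21 negative, with a median log2 difference of -0.15 (-0.07 without animal wt785) against 0.00 over all genes. In Input, edgeR called 0 of 28 tested members and 0% of 13870 genes, with 5 members and 982 genes at an unadjusted p below 0.05, and DESeq2 called 0 members and 0 genes. Members in Input were 5 positive and 23 negative, with a median of -0.26 (-0.14 with the heterozygous libraries whose titles end in IX or IXX included) against 0.01 over all genes. Epha8, Efnb1 and Dcc were below the filter in Input in addition to the 6 named above. With 3 against 5 animals the smallest p that the two-sided exact permutation test used here can give is 0.0357, reached where groups do not overlap.

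Some cell-type marker sums did not overlap between genotypes, and their part in these values was not tested. The sums of the other marker lists, and of these lists in the other fraction, overlapped. No share over all genes was worked out for such sums. The mural and oligodendrocyte precursor lists share the gene Cspg4. The sum over 8 astrocyte markers was 823 to 904 CPM in heterozygous Input against 956 to 1435 CPM in wild-type Input. In IP, 6 microglial markers summed to 38.5 to 49.4 CPM in heterozygous against 53.1 to 74.2 CPM in wild-type animals, 4 mural markers to 24.2 to 35.9 against 44.0 to 52.1 CPM, and 4 oligodendrocyte precursor markers to 15.6 to 18.4 against 21.1 to 36.6 CPM. No marker of these lists was at 0 in a group. Markers of glutamatergic neurons overlapped in Input, at 1764 to 1929 CPM in heterozygous and 1268 to 1871 CPM in wild-type animals.

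**Figure D4:**
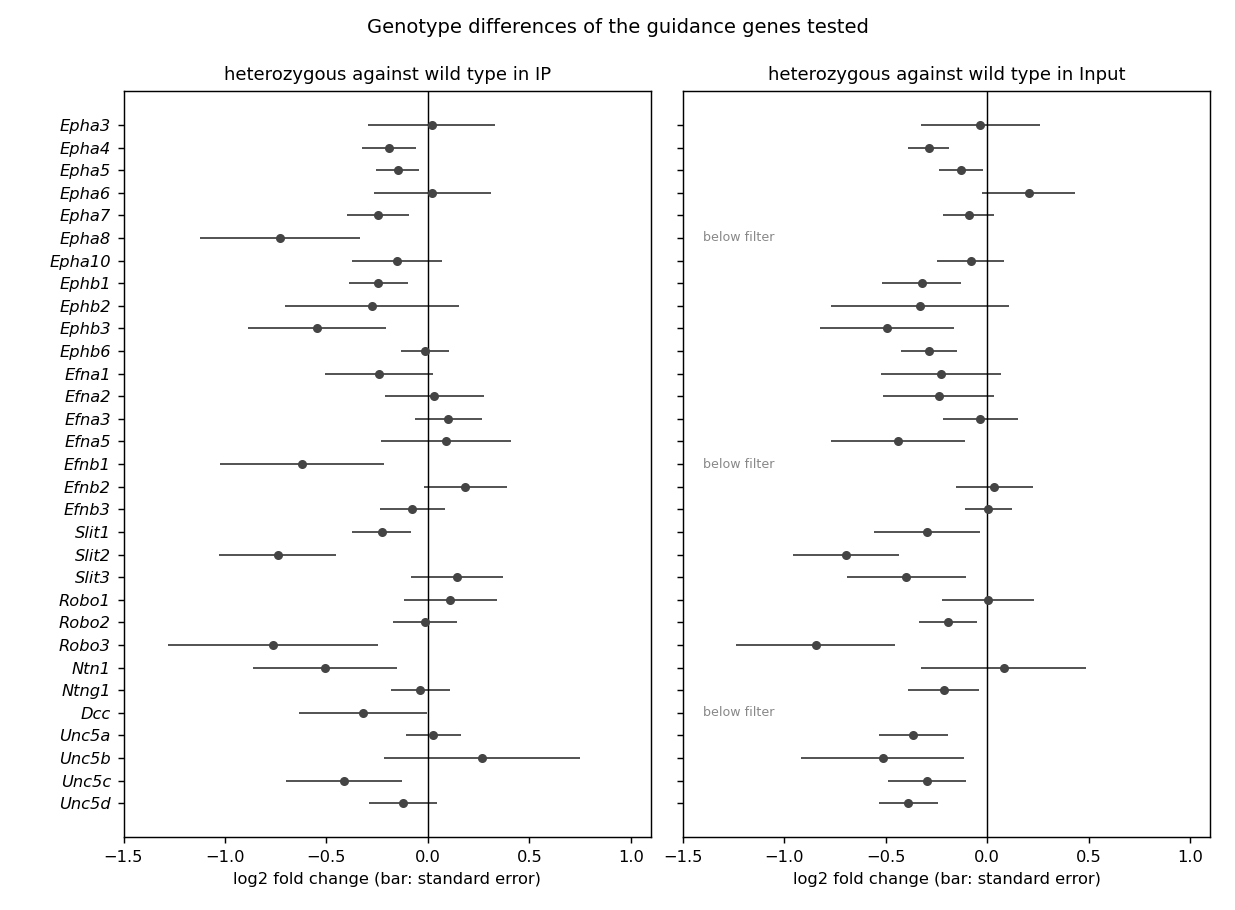
Log2 fold change of heterozygous over wild type in IP (left) and Input (right) for the 31 genes tested in IP, with standard errors from edgeR. Most points lie left of 0, 21 of 31 in IP and 23 of 28 in Input, and none passed the test.

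Slit2 had the smallest p of the members in IP and the second smallest in Input. In IP it stood at 5.08, 6.05 and 10.3 CPM in heterozygous animals against 13.5, 10.1, 15.0, 7.29 and 13.8 CPM in wild type, which overlapped. In Input it stood at 3.92, 6.81 and 6.43 CPM in heterozygous animals against 8.62, 8.77, 8.05, 7.52 and 13.0 CPM in wild type. Every heterozygous library compared was below every wild-type library. The heterozygous libraries titled IX or IXX, left out of this comparison, had 5.05 to 9.20 CPM and overlapped the wild-type Input range. The log2 difference was -0.74 ± 0.29 (SE) in IP (edgeR p 0.0220, adjusted p 0.981) and -0.70 ± 0.26 (SE) in Input (edgeR p 0.0147, adjusted p 0.670). The exact permutation test gave 0.107 in IP and 0.0357 in Input. Animals whose titles carry BT and those with a number alone were also compared apart, 1 heterozygous against 2 wild-type and 2 against 3 animals, too few for a test. In Input, Slit2 was at 62.7% of wild type among BT animals and 63.3% among the numbered ones, and in IP at 97.9% and 43.3%.

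Epha4 and Unc5d were the other members whose Input libraries did not overlap, 3 of 28 tested in all with Slit2, with heterozygous animals below wild type in each, as they were in 2.89% of all 13870 genes tested. Epha4 had 89.3, 94.0 and 104 CPM in heterozygous Input against 127, 126, 106, 117 and 111 CPM in wild-type Input, a log2 difference of -0.29 ± 0.10 (SE) (edgeR p 0.0106, adjusted p 0.670). It was at 91.5% of wild type among BT animals and 76.6% among numbered ones. The IX and IXX libraries, left out of this comparison, had 83.0 to 125 CPM of Epha4 and overlapped the wild-type Input range. Unc5d, a receptor through which netrins and FLRT proteins repel, had 19.6, 20.1 and 18.9 CPM in heterozygous Input against 25.3, 27.6, 27.6, 22.6 and 25.7 CPM in wild-type Input, a log2 difference of -0.39 ± 0.15 (SE) (edgeR p 0.0152, adjusted p 0.670). Its heterozygous values lay close together and at 78.3% and 73.9% of wild type in the BT and numbered animals. The IX and IXX libraries had 19.1 to 22.0 CPM of Unc5d, below the wild-type Input range. For both genes the exact permutation p was 0.0357, and in IP their genotypes overlapped, with log2 differences of -0.19 ± 0.13 (SE) and -0.12 ± 0.17 (SE).

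Robo3, a divergent Robo receptor, and Unc5a completed the 5 members of smallest p in Input. Robo3 had 1.83, 1.95 and 1.21 CPM in heterozygous Input against 4.04, 2.92, 3.74, 2.79 and 1.90 CPM in wild-type Input, on 3 to 7 counts per heterozygous and 6 to 15 per wild-type library. It was at 51.4% of wild type among BT animals and 52.9% among numbered ones. The top heterozygous library lay just above the lowest wild-type one, and the log2 difference was -0.85 ± 0.39 (SE) (edgeR p 0.0431, adjusted p 0.695). Unc5a had 15.9, 22.1 and 21.3 CPM in heterozygous Input against 26.4, 26.3, 29.6, 19.2 and 25.0 CPM in wild-type Input. Its groups overlapped through animal wtBT13, and the log2 difference was -0.36 ± 0.17 (SE) (edgeR p 0.0448, adjusted p 0.696). Among BT animals Unc5a was at 96.2% of wild type and among numbered ones at 69.2%.

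**Figure D5:**
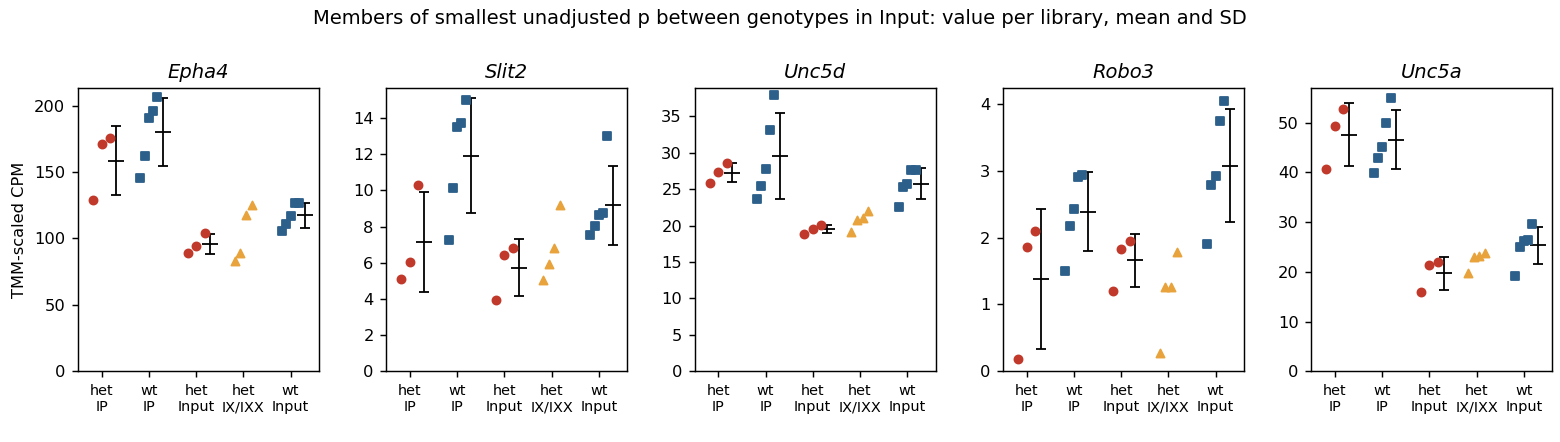
CPM of Epha4, Slit2, Unc5d, Robo3 and Unc5a in each library, with mean and SD beside the groups compared. Triangles are the 4 heterozygous libraries whose titles end in IX or IXX, 2 for each of 2 animals. They are in no main comparison and entered an alternative Input fit alone. For Unc5d the 3 heterozygous Input libraries lie at 18.9 to 20.1 CPM, below the wild-type minimum of 22.6 CPM.

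In IP, Slit2 was followed by Epha8, Ephb1, Ephb3 and Epha7. Epha8, an A-class receptor best known from the midbrain, had 1.05, 1.47 and 1.35 CPM in heterozygous against 1.33, 2.49, 2.50, 2.43 and 2.02 CPM in wild-type IP, on 6 to 8 and 8 to 16 counts per library. Ephb1 had 25.6, 27.9 and 24.0 CPM in heterozygous against 32.0, 25.4, 34.1, 27.6 and 33.4 CPM in wild-type IP. Both overlapped, with log2 differences of -0.73 ± 0.40 (SE) and -0.25 ± 0.15 (SE). Ephb3 had 6.31, 4.77 and 12.5 CPM in heterozygous against 13.5, 13.2, 10.2, 14.8 and 5.69 CPM in wild-type IP and was the most scattered of them. Its value was 122% of wild type among BT animals and 45.0% among numbered ones, so the direction turned between these sets. Epha7 had 61.2, 97.6 and 82.3 CPM in heterozygous against 84.6, 88.5, 80.3, 106 and 115 CPM in wild-type IP, with overlap and a log2 difference of -0.25 ± 0.15 (SE). Among BT and numbered animals, Epha8 was at 60.8% and 59.8% of wild type, Ephb1 at 78.7% and 87.7%, and Epha7 at 74.4% and 94.0%. The edgeR p of these 4 ran from 0.0869 to 0.134, and each adjusted p was 0.981.

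Among the ligands other than Slit2, log2 genotype differences ran both ways. In IP, Efnb2 had 0.18 ± 0.21 (SE), Slit3 had 0.14 ± 0.23 (SE) and Slit1 had -0.23 ± 0.15 (SE), and in Input these genes had 0.04 ± 0.19 (SE), -0.40 ± 0.29 (SE) and -0.30 ± 0.26 (SE). Efnb3, the member of highest level per length, had 73.0 ± 2.25 CPM in heterozygous Input and 73.2 ± 9.51 CPM in wild-type Input, with a log2 difference of 0.01 ± 0.12 (SE). Of the intracellular partners and other pathway genes, 0 of 40 tested in IP and 0 of 39 tested in Input passed in edgeR, with 14 positive and 26 negative in IP and 12 positive and 27 negative in Input.

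Whether the difference between IP and Input itself depended on genotype was tested as an interaction in the 16 libraries. Of 31 members edgeR called 0, and it called 0% of 14797 genes, with 0 members and 455 genes at an unadjusted p below 0.05; DESeq2 called 0 members and 0 genes. Unc5a had the smallest p of the members, 0.0846, with an interaction of 0.39 ± 0.21 (SE) on the log2 scale. It stood at 40.7, 49.3 and 52.9 CPM in heterozygous IP against 50.0, 40.0, 42.9, 55.0 and 45.1 CPM in wild-type IP, which overlapped, beside the Input values given above. Ephb6 followed with 0.28 ± 0.16 (SE) (edgeR p 0.103). It had 109.9, 114 and 99.8 CPM in heterozygous IP against 123, 124, 93.2, 108 and 93.3 CPM in wild-type IP, and 47.8, 59.3 and 55.8 CPM in heterozygous Input against 81.3, 62.2, 61.2, 52.1 and 75.5 CPM in wild-type Input, both overlapping. The adjusted p of both was 0.99998.

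Because Foxp2 is a forkhead factor, the promoter windows of the members were searched for the forkhead-type letters TGTTTAC and TGTTTGC on both strands. RefSeq windows of 300 bases, 250 before and 50 after the start, on GRCm38.p6 matched 32 members; Dcc, Efnb3, Ntn1, Slit1 and Unc5d had none. The letters were found in 2 of the 32, Epha7 and Efna2, which is 6.25%, against 9.47% of 27025 genes. The windows of Slit2 (chr5:47982905-47983204, plus strand) and Epha4 (chr1:77515039-77515338, minus strand) are shown because these genes had the smallest genotype p in IP and in Input, and that of Epha7 (chr4:28812895-28813194, plus strand), among the 5 of smallest p in IP, because this one of its 2 windows holds the letters, set in capitals as the reverse complement of TGTTTGC.
Slit2: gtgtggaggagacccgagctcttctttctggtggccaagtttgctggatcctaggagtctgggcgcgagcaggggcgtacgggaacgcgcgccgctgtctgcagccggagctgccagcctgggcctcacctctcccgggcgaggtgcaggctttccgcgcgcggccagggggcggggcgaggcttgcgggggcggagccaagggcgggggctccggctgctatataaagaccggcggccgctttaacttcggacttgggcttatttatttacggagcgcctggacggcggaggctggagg
Epha4: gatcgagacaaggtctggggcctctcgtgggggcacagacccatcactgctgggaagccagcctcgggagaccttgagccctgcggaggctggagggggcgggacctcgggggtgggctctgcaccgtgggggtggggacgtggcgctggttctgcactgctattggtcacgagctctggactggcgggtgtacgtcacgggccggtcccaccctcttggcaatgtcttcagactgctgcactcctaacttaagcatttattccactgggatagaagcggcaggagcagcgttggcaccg
Epha7: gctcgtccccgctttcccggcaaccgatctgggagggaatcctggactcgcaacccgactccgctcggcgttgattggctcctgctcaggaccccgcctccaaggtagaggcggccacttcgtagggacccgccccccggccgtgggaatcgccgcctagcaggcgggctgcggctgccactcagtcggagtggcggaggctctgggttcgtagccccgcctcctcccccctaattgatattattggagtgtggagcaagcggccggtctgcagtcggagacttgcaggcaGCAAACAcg
A match is a run of letters and not a binding site, and its absence speaks of these windows and of TGTTTAC and TGTTTGC alone. Other forkhead-type letters were not searched.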

How the data were processed

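The deposited table holds raw counts of reads by Ensembl gene in 20 libraries from 10 animals; per the submitters' processing notes, the authors counted with HTSeq and used mm10. Its version, the aligner, the annotation and whether strand was used are not given in the sources used here. Libraries followed Smart-seq2 per the labels' protocols, which records neither strand nor molecule. Reads are thus not independent molecules, and those of overlapping genes were not separable. IP and Input come from 1 lysate per the labels' protocols, and animal was therefore a block in the 16-library fit. As a check, same-animal deviations correlated with r from 0.0570 to 0.227 over 14797 genes, above every other animal of the genotype in 7 of 8. The exception was wtBT14, whose IP had r of 0.0797 with its own Input and 0.183 with the Input of another wild-type animal. Another 4 heterozygous libraries, titled IX or IXX, of 2 animals with no IP entered alternatives alone.

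The tests were run with edgeR 4.0.16 in R 4.3.3 (filterByExpr, count minimum 10; TMM; robust quasi-likelihood F tests; Benjamini-Hochberg over all tested genes, threshold 0.05), and genotype was fitted in each fraction apart. Two-sided exact permutation tests used CPM. Identifiers with a symbol numbered 24873 and those without 444. Transcript lengths came from the GENCODE vM21 annotation. Library values are printed for up to 4 called members per direction with the largest wild-type IP difference, a mean CPM of at least 2 and one direction in all 8 animals, and otherwise for the 5 (interaction: 2) members of smallest p. The members, lists and rule were chosen with earlier results of these data known. Alternatives were DESeq2 size factors, the DESeq2 1.42.0 test, no filter, a count minimum of 30, no block, the form of the animal's name as a covariate, the IX and IXX libraries, and each animal left out.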

Additional observations from a re-analysis of the deposited data

Results flagged for a closer look

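Of 59 groups of 5 wild-type libraries examined, 2 held a library far from the others by Dixon's test, which flags about 1 in 20 groups by chance. Both libraries come from animal wtBT14. Unc5c, a repulsive netrin receptor gene, was at 20.7 CPM in its IP, where the other wild-type IP libraries had 9.80 to 12.4 CPM. Slit2 was at 13.0 CPM in its Input, where the other wild-type Input libraries had 7.52 to 8.77 CPM. Without this animal the Slit2 log2 difference of heterozygous against wild type in Input was -0.57 (edgeR adjusted p 0.745), against -0.70 with it.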

How the results depend on the processing

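All median directions, and the 0 member calls of the genotype and interaction comparisons, stood under each alternative run. With each animal left out in turn, 10 to 16 members were called between IP and Input in heterozygous animals (16 in the full set), the 10 coming without animal hetBT13, and 16 to 18 in wild type (17 in the full set). Without animal het729, whose pull-down had the highest mitochondrial share, 14 were called, and without het786 13 were called. The Input genotype median of -0.26 was -0.14 with the IX and IXX libraries included, summed per animal. The cause was not tested. Without the animal block, 16 members were called in heterozygous animals and 17 in wild type, as with it; in wild type Ephb3 lost its call and Ephb2 gained one. Without the low-count filter edgeR called 28 genes of all between genotypes in Input and 11 in the interaction, against 0 with it, and 0 members in both. Counting each member in each alternative fit, single calls were lost 26 times. The calls lost were of Dcc, Unc5d, Robo1, Efnb3, Efna3 and Epha3 in heterozygous animals and of Efna3, Efna5, Efnb3, Ephb3 and Robo1 in wild type. No called member difference between IP and Input changed sign in these fits, while some values that were not called did, such as Robo3 in heterozygous animals (log2 -0.77 to 0.36). With 1 animal left out, the uncalled genotype log2 values ran from -1.11 to -0.55 for Slit2, -1.05 to -0.29 for Ephb3 and -0.41 to -0.08 for Epha7 in IP, and from -0.87 to -0.45 for Slit2 and -0.47 to -0.22 for Unc5a in Input. Depth limits the scarce members: Robo3, Epha8 and Dcc had 1 to 32 counts per library, and a change of theirs may not be detectable at this depth.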

Other observations

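The 4 heterozygous libraries titled IX or IXX, 2 each from animals het730 and hetBT14, are in none of the main comparisons above. They entered an alternative fit of genotype in Input alone. Slit2 was at 5.91 and 6.82 CPM in the libraries of animal het730 and 9.20 and 5.05 CPM in those of animal hetBT14. Epha4 was at 88.7 and 83.0 CPM in animal het730 and 125 and 118 CPM in animal hetBT14. Unc5d was at 20.7 and 21.0 CPM in animal het730 and 22.0 and 19.1 CPM in animal hetBT14. Dcc had 0 to 5 counts in these libraries.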
